A study of Mus musculus with 6 samples.

Results

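The comparison described here set leukocytes of miR-155 knockout mice (KO) against those of wild-type mice (WT) on day 21 of experimental autoimmune encephalomyelitis (EAE), the mouse model of multiple sclerosis in which T cells against myelin enter the central nervous system. Its members were all cell barcodes of the library labelled wild-type, day 21, and of the library labelled miR-155 knockout, day 21, that held at least 200 detected genes and at most 10% of their molecules from mitochondrial genes. They came to 9385 cells, 5625 of 5630 WT barcodes and 3760 of 3763 KO barcodes, out of 20007 kept cells in the 6 libraries of the series, which also has both genotypes on days 0 and 13. Both groups were C57BL/6 mice, and the labels state 5 mice per group, so each library is a pool. Live cells positive for CD45, the antigen of all leukocytes, were sorted after a Percoll gradient. The tissue is labelled brain, while the protocol names brain and spinal cord. What stretch of the miR-155 host gene is missing in the KO, and whether in every cell, is not stated in the labels. No source used here gives the age of the mice or how disease was induced. The titles of both day 21 libraries begin with the same number, whose meaning is not stated.

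With 1 library a side there is no replicate check: no test was run, no p-value is given, and every interval below is a 95% interval that covers counting error only. Differences between the libraries can come from genotype, from the pooled mice, or from the preparation of the cells, and these cannot be told apart here. Shares of cells and, within each class of cells, the level of each gene were compared separately. Levels are in CPM, the unique molecular identifiers (UMIs, counted molecules) of a gene per 1000000 UMIs of the class. A log2 ratio is log2((KO CPM + 1)/(WT CPM + 1)), a gene was measured where it reached 10 CPM in either library, and "higher" or "lower" in a count means at least 1.5-fold on that scale.

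MicroRNA-155 is cut from a noncoding host transcript, Mir155hg, that lymphocytes and myeloid cells switch on when they are activated. Loaded into an Argonaute protein it pairs through its seed, the bases near its 5′ end, with sites in the 3′ untranslated regions of messenger RNAs, which are then translated less and degraded faster. In EAE, T cells that enter the tissue release interferon-gamma, which induces in microglia and infiltrating macrophages the GTPases that attack intracellular microbes, the MHC class II genes that present peptides to CD4 T cells, and chemokines that draw in more T cells. Socs1, a brake on cytokine signalling, and Inpp5d, which encodes the phosphatase SHIP1, are among its best known targets.

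The mature miR-155-5p is shown first because its seed defines the sites searched in this text (RefSeq, GRCm38.p6, chr16:84714143-84714165, plus strand). Capitals mark its seed, bases 2 to 8.
mmu-miR-155-5p: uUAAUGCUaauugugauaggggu
Below it are full 8-base seed matches from 6 published targets, of which Jarid2 has 2 and the first is shown. A search found such matches in other published targets too, among them Tab2, Ets1 and Tle4, so these 6 are a selection. The matches shown are written as DNA 5′ to 3′ on the strand of the gene (genome and annotation GENCODE M21, GRCm38). The messages of these 6 targets are followed in each class. Capitals mark the match. All 6 lie in the last exon of their gene, within the 3′ untranslated region: Socs1 at chr16:10784203-10784228 (minus strand), Inpp5d at chr1:87719823-87719848 (plus), Cebpb at chr2:167690351-167690376 (plus), Spi1 at chr2:91115422-91115447 (plus), Bach1 at chr16:87732173-87732198 (plus) and Jarid2 at chr13:44920078-44920103 (plus).
Socs1: ctgccgctgtgccgcAGCATTAAgtg
Inpp5d: gagatgtttttaaaaAGCATTAAaga
Cebpb: accttttccgtttcgAGCATTAAagt
Spi1: gaccccgccggccatAGCATTAAccc
Bach1: ctctatgaacagtttAGCATTAAggg
Jarid2: aactgattttgttttAGCATTAAact

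The libraries held 24243660 UMIs in WT and 15504139 in KO, with a median of 3340 and 3021 UMIs and of 1246 and 1206 genes per cell. The median mitochondrial share was 2.23% in WT and 1.86% in KO cells. No barcode fell below 1591 UMIs in WT or 1490 in KO, a step that was present in the files as deposited. The libraries shared 32 barcodes, 0.568% of WT and 0.850% of KO cells, and other pairs of libraries of the series shared 5 to 25. Ptprc, the gene of CD45, had a UMI in 69.1% of WT and 63.6% of KO cells. Mir155hg, the host transcript, had 59 UMIs in WT and 1 in KO, or 2.43 and 0.0645 CPM. The WT molecules lay in T cells (20 UMIs, 3.50 CPM), monocytes and macrophages (9 UMIs, 2.03 CPM), microglia (7 UMIs, 2.17 CPM), conventional dendritic cells (5 UMIs, 13.7 CPM) and barcodes that met 2 marker panels alike (17 UMIs), while the neutrophil, B cell, natural killer (NK) and plasmacytoid dendritic cell classes had 0 in either library. This gives the direction that the labels state. At such levels it checks the libraries as a whole and no single cell.

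Cells were sorted into classes by panels of 6 to 12 marker genes. A barcode joined a class when it had at least 3 genes of that panel and at least 2 more than of any other, so class names below stand for the panel met. Panel genes were left out of all gene lists. Barcodes with 3 or more genes of at least 2 panels but without that lead are called mixed. The rest, 97 in WT and 80 in KO, are called ungated. Many cells of a class also had 3 or more genes of a second panel: 49.1% of WT and 33.5% of KO microglia, 36.4% and 36.7% of T cells, 49.7% and 64.3% of monocytes and macrophages, 35.8% and 26.9% of neutrophils, and 13.0% and 10.9% of B cells. Each gene list is therefore given over all cells of the class and again over single-panel cells, those with no second panel met. These were 439 WT and 1270 KO microglia, 977 and 159 T cells, 483 and 114 monocytes and macrophages, 604 and 399 neutrophils, and 161 and 271 B cells.

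Microglia were the largest class of the KO library and T cells of the WT library. Microglia were 863 of 5625 WT cells (15.3%, 14.4% to 16.3%) and 1909 of 3760 KO cells (50.8%, 49.2% to 52.4%), a KO to WT ratio of 3.31 (3.09 to 3.55). T cells went the other way, with 1536 WT cells (27.3%) and 251 KO cells (6.68%), a ratio of 0.245 (0.215 to 0.278). Monocytes and macrophages were 961 in WT (17.1%) and 319 in KO (8.48%), a ratio of 0.497 (0.441 to 0.560). Shares of one library sum to 100%, so a larger share of one class lowers the others, and no absolute number of cells per tissue can be read from them. Not every infiltrating class was a smaller share of the KO library. B cells were 3.29% of WT and 8.09% of KO cells, a ratio of 2.46 (2.06 to 2.94), against 0.868 (0.788 to 0.957) for neutrophils. Conventional dendritic cells, which prime T cells, were 69 in WT and 22 in KO, a ratio of 0.477 (0.296 to 0.769). Plasmacytoid dendritic cells, the main producers of type I interferon, were 15 and 26, a ratio of 2.59 (1.38 to 4.89). The intervals of NK cells (0.939, 0.605 to 1.46) and basophils (0.658, 0.324 to 1.34) included 1. No barcode was classed as a border-associated macrophage in either library, which allows a share of that class of up to 0.0656% in WT and 0.0981% in KO. Among mixed barcodes, 3 in WT and 2 in KO met this panel together with the microglia panel.

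**Figure D1:**
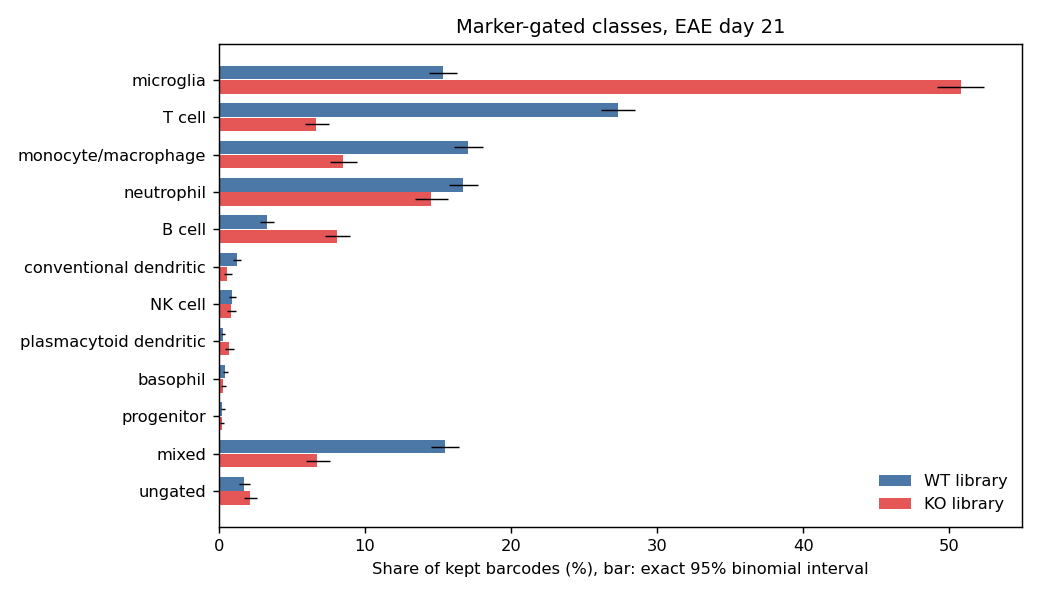
Share of kept cells (percent, x axis) in each marker-gated class in the WT and KO day 21 libraries, with exact binomial 95% intervals as bars. Microglia stand at 50.8% in KO against 15.3% in WT, and T cells at 6.68% against 27.3%.

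Mixed barcodes were more frequent in WT, with 869 (15.5%) against 253 in KO (6.73%), a ratio of 0.436. Their median of 5665 UMIs in WT and 6904 in KO lay above that of microglia (2691 and 2802), T cells (2444 and 2984), monocytes and macrophages (4087 and 5630), neutrophils (2879 and 3306) and B cells (1927 and 2034). The most frequent pair in WT was the T cell with the microglia panel, at 343 barcodes, 6.10% of all kept WT cells, against 46 (1.22%) in KO. T cell with monocyte panels made up 123 WT and 5 KO barcodes, and microglia with monocyte panels 43 and 32. Droplets that held 2 cells and single cells that carry both sets of messages cannot be told apart here. Counting the T cell with microglia barcodes as microglia gave a microglial ratio of 2.43 in place of 3.31. Microglia at the edge of the gate, with exactly 3 panel genes or a lead of exactly 2, were 14.4% of the class in WT and 2.83% in KO.

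RNA of other classes moved with the library inside the gates, and its part in the results below was not tested beyond the single-panel values. The 12 genes of the T cell panel summed to 1760 CPM in WT and 354.2 CPM in KO microglia, and to 124.7 and 21.09 CPM in single-panel microglia. In monocytes and macrophages they summed to 242.2 and 30.63 CPM, and to 60.81 and 20.61 CPM in single-panel cells, where 5 of 12 were at 0 in KO. The microglia panel in T cells stood at 978.2 CPM in WT and 912.4 CPM in KO, and at 164.1 and 361 CPM in single-panel T cells. The monocyte panel in T cells stood at 2131 and 1561 CPM, and at 1077 and 815.2 CPM in single-panel T cells.

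Within the classes, the make-up by single defining genes was compared after thinning each cell to 1500 UMIs, which left out 7 KO cells and 0 WT cells. CD8 T cells, those with a UMI of Cd8a or Cd8b1 and none of Cd4, were 37.5% (35.1% to 40.0%) of WT and 15.1% (10.9% to 20.2%) of KO T cells, while cells with Cd4 and neither CD8 gene were 10.9% and 11.95%. T cells with a UMI of Gzma or Gzmk, granzymes of effector cells, were 24.2% (22.1% to 26.4%) in WT and 1.20% (0.247% to 3.45%) in KO. The share of neutrophils with the same granzyme molecules was 1.38% and 0.184%. Such molecules can come from free RNA or from a second cell in the droplet, which was not tested. The KO share of T cells lay above the KO neutrophil share and below the WT one. T cells with Ccr7, Lef1 or Dapl1, genes of naive and recirculating cells, were 16.3% in WT and 26.3% in KO, those with Foxp3, the factor of regulatory T cells, 5.08% and 8.77%, and those with gamma-delta receptor genes 4.10% and 7.17%. Before thinning, CD8 cells were 39.8% and 17.5%, granzyme-positive cells 32.7% and 3.19%, and Foxp3-positive cells 12.2% and 13.2%, so that the Foxp3 difference was smaller at full depth.

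Among microglia, cells with a UMI of H2-Aa or H2-Ab1, which encode an MHC class II molecule, were 85.8% in WT and 48.9% in KO. The same genes had a UMI in 30.3% of WT and 24.3% of KO T cells, which do not make them in mice. Microglia with Cxcl9 or Cxcl10 were 13.0% and 3.77%, against 0.541% and 1% of B cells, and those with Gas6, a bridging ligand for the clearance of dying cells, 10.8% and 28.8%. Monocytes and macrophages with Arg1 were 5.52% in WT and 0.940% in KO, those with Cxcl9 or Cxcl10 32.6% and 8.46%, and those with Ace or Treml4, genes of patrolling nonclassical monocytes, 3.64% and 13.8%. Neutrophils with cell cycle genes were 6.59% and 2.57%, and those with Prok2, a gene of mature neutrophils, 5.42% and 15.3%. B cells with Cr2 or Fcer2a, receptors of mature naive B cells, were 11.4% and 28.0%. Cycling cells, those with Mki67 or Top2a, were 2.78% and 2.15% of microglia, a ratio of 0.773 (0.470 to 1.27), and 6.45% and 6.58% of monocytes and macrophages, a ratio of 1.02 (0.632 to 1.65). Before thinning they were 8.69% and 3.72% of microglia, a ratio of 0.428 (0.313 to 0.586), and 12.4% and 16.9% of monocytes and macrophages, a ratio of 1.37 (1.02 to 1.84), so these shares depended on depth. The other shares kept their order before thinning: MHC class II in microglia was 91.1% and 61.8%, Cxcl9 or Cxcl10 19.1% and 5.71%, Gas6 20.7% and 45.1%, Arg1 in macrophages 8.43% and 1.88%, Ace or Treml4 7.80% and 21.3%, cycling neutrophils 12.9% and 6.04%, Prok2 7.12% and 21.98%, and Cr2 or Fcer2a in B cells 14.1% and 32.9%.

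**Figure D2:**
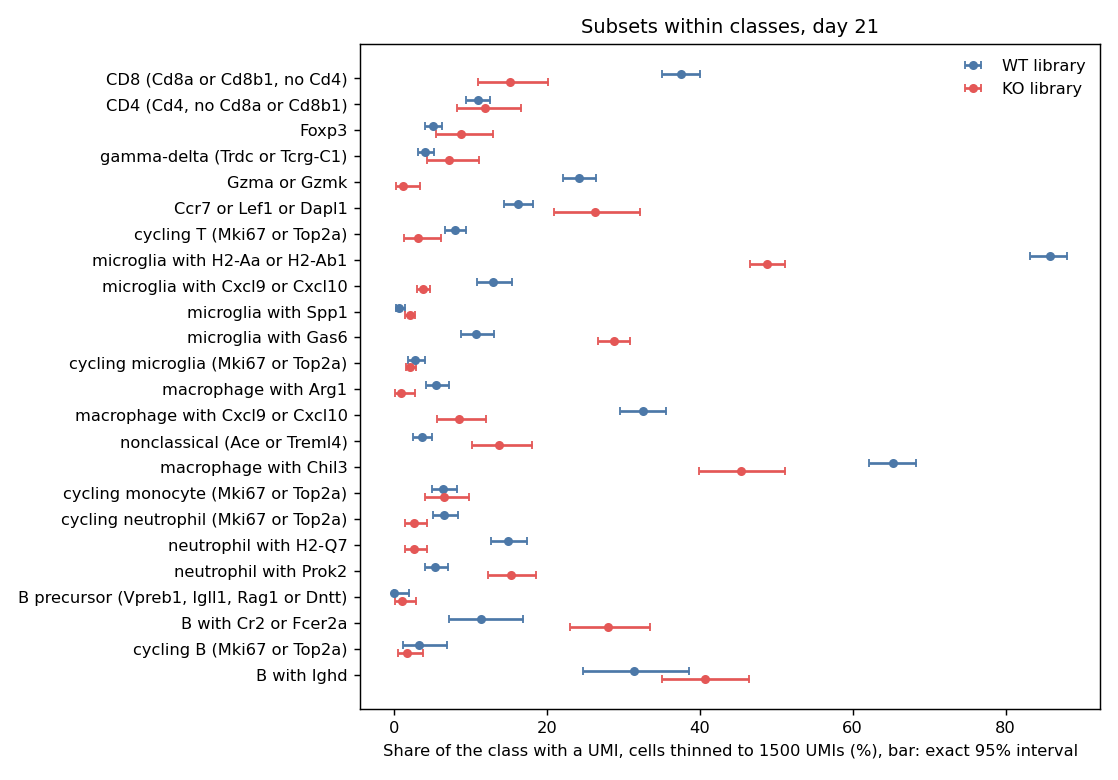
Share of cells of a class (percent, x axis) with a UMI of the named genes after thinning to 1500 UMIs, in WT and KO, with exact binomial 95% intervals as bars. Granzyme-positive T cells stand at 24.2% in WT and 1.20% in KO, and nonclassical monocytes at 3.64% and 13.8%.

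Microglia of the KO library had lower levels of interferon-induced and antigen presentation genes and higher levels of resting microglial genes. Of 7794 genes measured in this class, 712 were higher (9.14%) and 687 lower (8.81%) in KO, and the log2 ratios had a median of 0.04. Among single-panel microglia, 963 of 7482 genes were higher (12.9%) and 425 lower (5.68%). The counting interval of the ratio excluded 1 for 705 of the 712 and 685 of the 687, so depth was not what limited these counts. When the cells were clustered in place of gated, the clusters named microglia differed in make-up: cluster 7 held 346 WT and 229 KO cells, cluster 0 128 and 815, cluster 9 11 and 438, and cluster 16 14 and 201.

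Of the 13 measured interferon-gamma GTPases, 11 were lower and 0 higher in KO microglia, with a median log2 ratio of -1.32, and -1.91 with the same counts in single-panel cells. Gbp2, a guanylate-binding protein that coats the vacuoles of microbes, stood at 283.6 CPM in WT and 88.0 CPM in KO, a KO to WT ratio of 0.310 (0.280 to 0.344). In single-panel microglia it stood at 334.5 and 57.3 CPM, a ratio of 0.171 (0.143 to 0.204). Iigp1, an immunity-related GTPase of the same defence, had 129.1 and 36.8 CPM. The distance between the libraries was thus larger in the cells with no second panel. Irgm1 and Irgm2, regulators of the immunity-related GTPases, were the 2 members inside 1.5-fold, with log2 ratios of -0.12 and -0.32. Of 27 antiviral genes induced by interferons, 13 were lower and 0 higher (median -0.57), and 21 were lower among single-panel cells (-0.75). Zbp1, a sensor of viral nucleic acid, stood at 148.9 and 61.0 CPM, and Irf7, a factor that amplifies type I interferon, at 135.9 and 64.1 CPM.

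MHC class II genes had 5 of 10 lower and 0 higher (median -0.70), and 9 of 10 lower in single-panel microglia (-1.28). Ciita, their master regulator, stood at 31.6 CPM in WT and 7.25 CPM in KO, H2-Aa at 2547 and 1242 CPM, and Cd74, the invariant chain that escorts class II molecules, at 9985 and 4976 CPM. In single-panel cells H2-Aa stood at 2634 and 780.4 CPM, a ratio of 0.296 (0.281 to 0.313). The level in WT was alike in both sets of cells, and that in KO was lower in single-panel cells.

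Genes of resting microglia were higher: 14 of 22 homeostatic genes were higher and 0 lower over all cells (median 0.75). In single-panel cells 6 were higher and 0 lower, with a median of 0.45. P2ry13, a purine receptor, stood at 158.2 CPM in WT and 333.6 CPM in KO, Csf1r, the receptor that keeps microglia alive, at 1487 and 2764 CPM, and Mef2c, a transcription factor of mature microglia, at 391.6 and 672.9 CPM. None of the 22 is in a marker panel. Differences were smaller in single-panel cells, with Csf1r at 0.56 on the log2 scale against 0.89 over all cells.

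Genes of disease-associated microglia, a state of microglia around damaged tissue, did not go one way. Over all cells 10 of 20 were higher and 3 lower (median 0.49), and in single-panel cells 3 of 21 were higher and 7 lower (0.06). Trem2, a lipid receptor, had log2 ratios of 0.59 and, in single-panel cells, 0.18, while Apoe, a lipid carrier, had -0.25 and -0.95, the receptor kinase gene Axl -0.25 and -0.96, and the integrin gene Itgax -0.59 and -1.02. Spp1, which encodes osteopontin, stood at 15.2 CPM in WT and 65.7 CPM in KO, with 34.7% of its WT UMIs in 1 cell, and its log2 ratio of 2.04 became 0.78. Lpl, a lipase, kept a log2 ratio above 1 in both sets (1.60 and 1.27). Lysosomal genes had 3 of 17 higher and 0 lower (median 0.44), but 0 and 0 in single-panel cells (0.10). Complement genes had 2 of 12 higher and 4 lower (0.34), and 1 and 3 of 11 in single-panel cells (-0.01). C4b was lower, at 151.7 CPM in WT and 74.2 CPM in KO.

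Immediate early genes, which stimulation or tissue dissociation switches on within minutes, had 6 of 16 higher and 0 lower (median 0.47), and 10 of 17 in single-panel cells (0.60). Fos stood at 447.1 CPM in WT and 802.7 CPM in KO, and Klf4 at 26.6 and 63.4 CPM. S100 and alarmin genes had 10 of 13 lower and 0 higher (median -0.89), and 5 of 12 lower in single-panel cells (-0.37). S100a10 and Vim, genes of activated and infiltrating leukocytes, were lower in both sets (log2 -1.62 and -1.61 over all cells, -0.92 and -1.03 in single-panel cells), whereas S100a9, a neutrophil gene, went from -0.51 to 0.27. Transcription factors of the IRF and STAT families had 6 of 15 lower and 0 higher (-0.51), and 5 lower and 1 higher of 14 in single-panel cells (-0.13).

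Genes were named by rule, ranked by the end of the counting interval of their ratio nearest to 1 among those at 50 CPM or more. Among the 10 highest in KO microglia was Gas6, at 68.4 CPM in WT and 282.4 CPM in KO, a ratio of 4.13 (3.59 to 4.77). In single-panel cells Gas6 stood at 91.05 and 276.5 CPM, a ratio of 3.04 (2.45 to 3.80). Serinc3, a membrane protein gene, stood at 434.7 and 1202 CPM, Hpgd, whose enzyme inactivates prostaglandins, at 55.7 and 175.2 CPM, and Ltc4s, whose enzyme makes leukotriene C4, at 265.9 and 603.6 CPM. Sepp1, a selenium carrier, had 1117 and 2543 CPM, the protease gene Adamts1 40.9 and 104.7 CPM, and the chemokine gene Ccl3 199.4 and 456.1 CPM. Each of these kept a log2 ratio of at least 0.68 in single-panel cells.

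Among the genes lowest in KO microglia, Cd8a (71.8 and 1.02 CPM), Cd8b1 (106.2 and 2.32 CPM), Nkg7 (402.2 and 41.9 CPM), Ms4a4b (265.3 and 44.2 CPM), Gimap7 (78.95 and 11.7 CPM), Ctla2a and Ccl5 (2944 and 332.9 CPM) are genes of T cells and NK cells. The T cell panel stood at 1760 CPM in the WT gate and 354.2 CPM in the KO gate. Within the T cell class, CD8 cells were 37.5% in WT and 15.1% in KO, and Nkg7 stood at 1375 and 726.8 CPM. The part of T cell RNA in these genes was not tested. In single-panel cells Cd8a went from a log2 ratio of -5.18 to -1.63 and Ctla2a from -2.67 to -0.96, and Ccl5 stood at 740.3 and 140.2 CPM. Serpina3g, a protease inhibitor induced by interferon-gamma, stood at 61.3 and 7.83 CPM with a log2 ratio of -2.82, and of -3.49 in single-panel cells. Saa3, an acute phase gene of macrophages, had 184 UMIs in WT and 4 in KO, and Chil3, a chitinase-like gene of monocytes and neutrophils, stood at 375.5 and 60.2 CPM.

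Monocytes and macrophages of the KO library had lower levels of interferon-gamma GTPases, chemokines and inflammatory macrophage genes, and higher levels of nonclassical monocyte genes. Of 6923 measured genes, 528 were higher (7.63%) and 531 lower (7.67%), with a median of 0.04, and in single-panel cells 1105 of 6938 were higher (15.9%) and 878 lower (12.7%). The KO class had 319 cells, of which 114 were single-panel, which sets the depth. Of the clusters with this name, cluster 4 was the largest in both libraries, cluster 12 held 339 WT and 22 KO cells and cluster 14 held 142 and 100.

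The interferon-gamma GTPases had 10 of 12 lower and 0 higher (median -1.24), and 11 of 12 in single-panel cells (-1.36). Gbp2 stood at 557.1 CPM in WT and 203.1 CPM in KO, and at 704.7 and 262.3 CPM in single-panel cells. Of 13 chemokines, 10 were lower and 0 higher (-1.55), and 9 lower and 1 higher in single-panel cells (-1.22). Cxcl10, which draws T cells through the receptor CXCR3, stood at 1023 CPM in WT and 111.2 CPM in KO, a WT to KO ratio of 9.20, and in single-panel cells at 990.8 and 88.0 CPM. Cxcl9, a ligand of the same receptor, stood at 328.8 and 57.8 CPM, Ccl7 at 76.1 and 3.46 CPM and Ccl2 at 281.8 and 67.2 CPM, the last pair being attractants of monocytes. These genes were low in KO with or without the second-panel barcodes. Ccl3, Ccl6 and Ccl9 stood apart from the other chemokines at log2 ratios of 0.58, -0.04 and 0.06. Ccl5, at 842.5 and 278.2 CPM over all cells, had a log2 ratio of -1.59 that became -0.35 in single-panel cells.

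Inflammatory macrophage genes, the list led by Arg1 and Nos2, had 11 of 14 lower and 0 higher (median -1.58), and 12 of 14 in single-panel cells (-1.47). Arg1, the arginase of alternatively activated and of EAE macrophages, stood at 102.2 CPM in WT and 15.8 CPM in KO, and at 131.9 and 58.1 CPM in single-panel cells. Irg1, whose enzyme makes itaconate, stood at 144.3 and 15.3 CPM, Saa3 at 269.4 and 77.6 CPM, and Cd14, the coreceptor for endotoxin, at 194.5 and 74.1 CPM. Chil3 stood at 6009 and 1415 CPM, a WT to KO ratio of 4.25, and at 6349 and 1461 CPM in single-panel cells. Genes of NF-kB feedback and cytokines had 13 of 17 lower and 0 higher (-0.86), and 10 of 18 lower with 1 higher in single-panel cells (-0.77). Il1b, the inflammasome cytokine, stood at 506 and 158.6 CPM, its antagonist Il1rn at 150.6 and 37.1 CPM, and Nfkbia, the inhibitor of NF-kB, at 619.4 and 280.6 CPM. Both the cytokine and its brakes were thus low in KO. Genes of dendritic cell maturation had 10 of 17 lower and 1 higher (-0.81), and 8 lower and 1 higher in single-panel cells (-0.44), among them Cd274, which encodes PD-L1, at 36.01 and 5.44 CPM, and the costimulatory receptor gene Cd40 at 89.6 and 25.7 CPM. Glycolysis genes had 5 of 17 lower and 0 higher (-0.33), and 5 lower and 1 higher in single-panel cells (-0.42), with the glucose transporter gene Slc2a1 at 69.6 and 25.2 CPM.

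MHC class II genes of this class had 1 of 9 lower and 0 higher (median -0.08), and 1 of 10 lower and 1 higher in single-panel cells (-0.17), with H2-Aa at 2563 CPM in WT and 2422 CPM in KO, a ratio of 0.945 (0.914 to 0.978). Nonclassical monocyte genes had 10 of 12 higher and 0 lower (1.08), and 11 of 12 in single-panel cells (1.64). Cd300e stood at 3.83 and 28.2 CPM, Ace, the angiotensin-converting enzyme, at 9.45 and 42.0 CPM, and Nr4a1, the factor these monocytes need, at 16.7 and 48.4 CPM. This list depended on how cells were classed: with classes taken from clusters in place of gates its median was -0.08. Cell cycle genes had 12 of 25 higher and 0 lower (0.54), among them the replication genes Mcm6 (22.96 and 52.9 CPM) and Mcm5 (22.7 and 49.4 CPM), while Mki67, a marker of dividing cells, stood at 42.99 and 43.97 CPM. In single-panel cells 12 of 24 cell cycle genes were higher and 1 lower (0.62). The share of cycling cells, given above, was alike after thinning and higher in KO before it. The other genes named as highest in KO were Atp5k, Tmsb10, Ndufa3, Snrpf, Snrpg, Serinc3, Crip1, Wdr89 and Klf2, with log2 ratios no higher than that of Mcm6 (1.17).

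Neutrophils had lower levels in KO of interferon genes, MHC class I genes and cell cycle genes. Of 4999 measured genes 159 were higher (3.18%) and 1008 lower (20.2%), with a median of -0.21, and in single-panel cells 249 of 4732 were higher (5.26%) and 952 lower (20.1%). The whole distribution is therefore shifted, and after centring all genes on their median 355 were higher and 541 lower. S100a8, a calcium-binding alarmin, stood at 135941.7 CPM in WT and 209322.9 CPM in KO, a ratio of 1.54 (1.53 to 1.55), and its part in the shift was not tested. List medians below are read against -0.21.

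All 4 measured interferon-gamma GTPases were lower (median -1.58), and 3 of 4 in single-panel cells (-1.08). Gbp2 had 131 UMIs in WT and 16 in KO, or 39.3 and 7.46 CPM. Antiviral genes had 14 of 21 lower and 0 higher (-0.80), and 13 of 21 in single-panel cells (-0.66), led by Ifit1, which blocks viral translation, at 40.8 and 7.46 CPM. MHC class I and peptide loading genes had 7 of 16 lower and 1 higher (-0.53), and 8 and 1 of 14 in single-panel cells (-0.63). H2-Q7, a nonclassical class I gene, stood at 132.9 and 20.5 CPM, a WT to KO ratio of 6.48, and at 105.8 and 9.62 CPM in single-panel cells, and H2-K1, which presents peptides to CD8 T cells, at 633.3 and 270.8 CPM. The H2 genes are near-identical copies, and reads shared among them can be lost or misplaced. Other class I genes did not all follow: H2-D1 stood at 1454 and 1306 CPM, and H2-T23 at 30.3 and 46.1 CPM. MHC class II genes had 6 of 7 lower (-0.90), but 0 of 5 in either direction in single-panel neutrophils (0.09), where H2-Aa had a log2 ratio of 0.28 against -1.34 over all cells.

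Cell cycle genes had 18 of 24 lower and 0 higher in neutrophils (median -0.87), and 20 of 23 in single-panel cells (-0.92), with Mki67 at 43.5 CPM in WT and 20.04 CPM in KO, Tubb5 at 262.5 and 105.3 CPM and Ube2c at 202.2 and 92.75 CPM. Chil3, high in developing neutrophils, stood at 8955 and 3753 CPM, and at 8940 and 3869 CPM in single-panel cells. Of the other granule genes none was 1.5-fold apart: the list had 1 of 10 lower, Chil3 itself, and 0 higher (-0.06), with the same counts in single-panel cells (-0.19) and with Lyz2, the lysozyme gene, at a log2 ratio of -0.04. Genes of maturation and activation had 2 of 22 higher and 5 lower (-0.23), and 5 of 19 higher and 4 lower in single-panel cells (-0.10). The chemokine receptor gene Cxcr4 was higher, with 17.1 and 38.7 CPM, and Stfa2, a protease inhibitor of neutrophils, lower, with 99 UMIs in WT and 5 in KO. Prok2 stood at 37.8 and 117 CPM, a ratio of 3.10 (2.49 to 3.87), Wfdc17 at 348 and 805.8 CPM, Il1f9, an interleukin-1 family cytokine, at 76.2 and 169.7 CPM, and Clec4d, a lectin for fungal sugars, at 70.5 and 141.2 CPM. NF-kB genes had 7 of 13 lower and 0 higher (-0.60), and 4 lower and 1 higher of 11 in single-panel cells (-0.46), with Nfkbia at 274.8 and 143.6 CPM.

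T cells of the KO library had higher levels of genes of naive, recirculating cells and lower levels of granzymes, cell cycle genes and chemokines. Of 7549 measured genes 481 were higher (6.37%) and 568 lower (7.52%), with a median of -0.01, and in single-panel cells 1007 of 7293 were higher (13.8%) and 908 lower (12.5%). With 251 KO cells, the counting interval excluded 1 for 282 of the 481 and 285 of the 568. Of the clusters named T cells, cluster 10 held 437 WT and 12 KO cells and cluster 3 held 521 and 132.

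Naive and homing genes had 10 of 12 higher and 0 lower (median 0.69), and 9 of 12 in single-panel cells (0.89). Dapl1 stood at 21.1 CPM in WT and 76.4 CPM in KO, a ratio of 3.61 (2.66 to 4.88), Lef1, a factor of naive T cells, at 58.7 and 129.4 CPM, and S1pr1, the receptor for exit from lymph nodes, at 57.7 and 102.9 CPM. The gamma-delta receptor genes Trdc (32.0 and 85.9 CPM) and Tcrg-C1 (20.3 and 59.4 CPM) were also among the highest. Their differences were as large in single-panel cells, where Trdc stood at 58.3 and 152.1 CPM and Dapl1 at 39.7 and 149.9 CPM. Hmox1, also among the 10 highest, had 87.1% of its KO UMIs in 1 cell, and its log2 ratio was -1.62 in single-panel cells.

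Cytotoxic granule genes had 6 of 14 lower and 0 higher (median -0.44), and 11 of 14 in single-panel cells (-1.06). Gzma stood at 371 CPM in WT and 15.9 CPM in KO, a WT to KO ratio of 23.3, and at 270.4 and 11.35 CPM in single-panel cells, Gzmk at 160.1 and 13.8 CPM, and Gzmb at 264 and 101.9 CPM. Fasl, a death ligand, stood at 42.3 and 24.4 CPM. Cell cycle genes had 14 of 25 lower and 0 higher (-0.78), and 13 of 23 in single-panel cells (-1.27). Mki67 had 201 of the 5722551 UMIs of the class in WT and 8 of the 942550 in KO. Top2a, a topoisomerase of dividing cells, stood at 77.1 and 35.01 CPM. After thinning all cells to one depth the cell cycle median was -0.23. The 14 measured chemokines had 12 lower and 0 higher (-1.59), but most lay under the minimum in single-panel cells, where 3 of 6 were lower and 1 higher (-0.40). The ones that T cells themselves make stayed low in those cells: Ccl4 stood at 215.4 and 22.7 CPM, Ccl5 at 7851 and 3161 CPM, and Ccl1 had 144 UMIs in WT and 0 in KO. Of Ccl1, 42.7% of the WT UMIs over the whole class came from 1 cell. Ccl17, a dendritic cell gene, went from a log2 ratio of -5.01 to 0.09, and Ighg2b, Igkc and Prss34, genes of antibody-secreting cells and basophils, had 96.4%, 83.1% and 52.4% of their WT UMIs in 1 cell.

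Genes of T helper 1 and 17 cells, the helper types held to drive EAE, had 0 of 12 higher and 0 lower (median -0.03), and 3 of 14 higher and 1 lower in single-panel cells (-0.18). Ifng had 209 UMIs in WT and 27 in KO, or 36.5 and 28.65 CPM, a ratio of 0.784 whose interval (0.505 to 1.17) included 1. With 4.09 times more T cells per kept cell in WT, the levels within the class and the number of cells are separate quantities. Regulatory T cell genes had 1 of 13 higher and 0 lower (0.07), and 1 and 1 in single-panel cells (0.18), with Foxp3 at 46.3 and 61.5 CPM (ratio 1.33, 0.982 to 1.77) and Nt5e, which makes adenosine, at 20.6 and 35.01 CPM. Interferon-gamma GTPases had 4 of 13 lower (-0.41), and 2 lower with 1 higher of 12 in single-panel cells (-0.15), a smaller difference than in the myeloid classes, with Gbp2 at 148.7 and 89.1 CPM. The difference between classes was not tested.

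**Figure D3:**
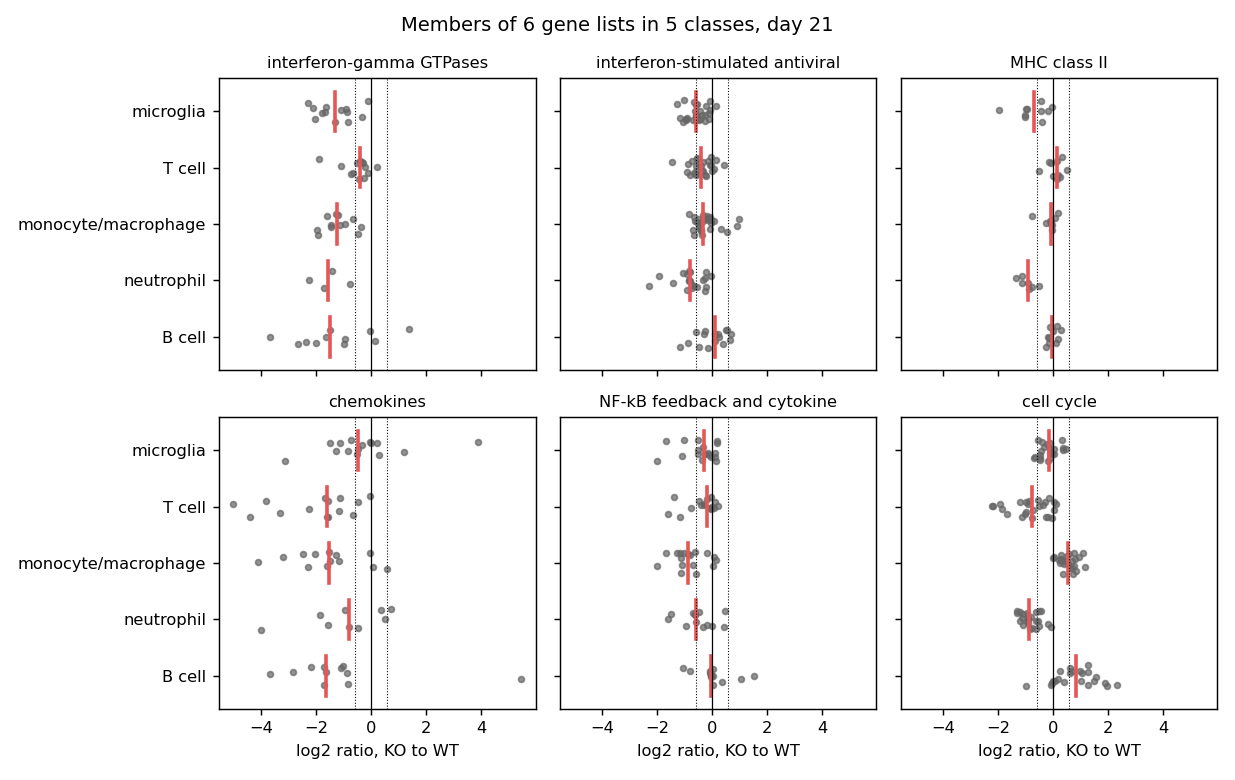
Log2 ratio of KO to WT (x axis) for each measured gene of 6 lists in 5 classes (y axis). Points are genes, the red line is the median of the list, and dotted lines mark 1.5-fold. The GTPase medians run from -0.41 in T cells to -1.58 in neutrophils. The highest chemokine points, Ccl8 in microglia (log2 3.87) and Cxcl2 in B cells (log2 5.45), have 87.2% and 100% of their KO UMIs in 1 cell.

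B cells of the KO library had lower levels of interferon-gamma GTPases and higher levels of many cell cycle genes, while the list of mature B cell genes was close to all genes. There were 185 WT and 304 KO cells, and small counts widen every ratio: of 7042 measured genes 1481 were higher (21.0%) and 911 lower (12.9%), but the counting interval excluded 1 for 320 and 200 of them. The median was 0.10. In single-panel cells 1769 of 7170 were higher (24.7%) and 933 lower (13.0%).

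The GTPases had 8 of 11 lower and 1 higher (median -1.48), and the same counts in single-panel cells (-1.22). Igtp, an immunity-related GTPase, had 33 UMIs in WT and 13 in KO, or 77.8 and 18.5 CPM, and Gbp7 77.8 and 24.2 CPM, while Gbp9, the one that was higher, had 3 and 14 UMIs with an interval of 0.786 to 15.3. Serpina3f (70.7 and 5.69 CPM) and Serpina3g (282.9 and 102.5 CPM), neighbours of the same inhibitor family, were also lower, as were Socs3 (66.0 and 17.1 CPM) and Socs1 (99.01 and 11.4 CPM). Cell cycle genes had 14 of 22 higher and 1 lower (0.84), and 14 of 20 in single-panel cells (1.25), from few molecules each. Ezh2, a histone methyltransferase of dividing B cells, stood at 4.72 and 51.2 CPM (ratio 10.9, 2.80 to 93.2), and the chromosome condensation gene Smc4 at 37.7 and 115.3 CPM. The share of B cells with cycling genes was 3.24% in WT and 1.67% in KO after thinning, which is not the order of these levels. Mature B genes had 3 of 17 higher and 1 lower (0.13), and the same counts in single-panel cells (0.14), a share below the 21.0% of all genes. Among the 3 were Fcer2a at 44.8 and 126.7 CPM and Cr2 at 33 and 102.5 CPM (ratio 3.10, 1.74 to 5.96). MHC class II genes, which B cells make at rest, had 0 of 10 higher and 0 lower (-0.05), and 1 and 0 in single-panel cells (0.03). S100 and alarmin genes had 6 of 13 lower and 0 higher (-0.56), and 5 lower in single-panel cells (-0.38), among them Lgals3 at 155.6 and 61.2 CPM.

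**Figure D4:**
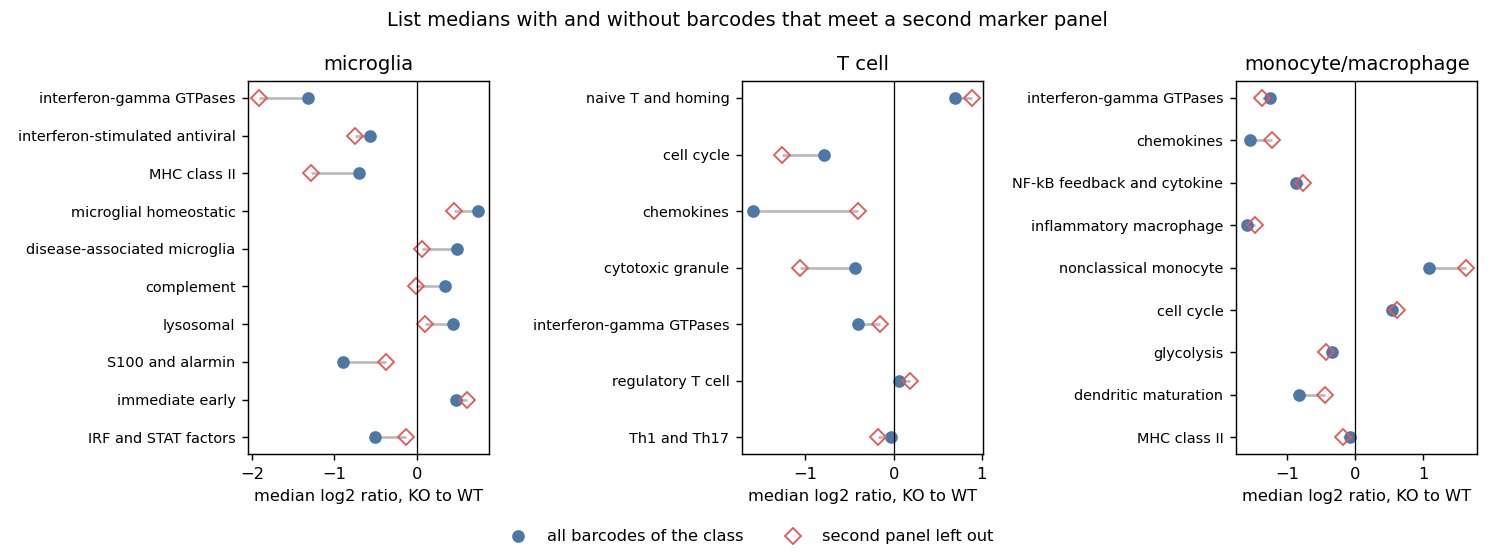
Median of the log2 ratios (x axis) of each gene list (y axis) for microglia, T cells and monocytes and macrophages. Circles are medians over all cells of the class, and open diamonds are medians over single-panel cells. A grey line joins both medians of a list. Long lines are lists whose median moved with the gate, such as T cell chemokines (-1.59 and -0.40) and MHC class II of microglia (-0.70 and -1.28).

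Across the 5 larger classes, 4195 genes were measured in all. Ccl5, Chil3, Csf2rb, Cxcl10, Fn1, Gbp2 and Ly6a, 7 genes, were lower in all 5, and Fcrls and Rps27rt, 2 genes, higher in all 5. Fn1 and Fcrls belong to marker panels of monocytes and of microglia, and the part of such RNA from other cells in these counts was not tested. A further 28 were lower in 4 of 5. They hold 8 panel genes, the T cell genes Cd3d, Cd3g, Lat, Trbc1 and Trbc2 and the neutrophil genes Camp, Ngp and Ltf, as well as Nkg7, Gimap4 and Ctla2a of lymphocytes, Lcn2 of neutrophils and Igkc of B cells. They also hold the interferon genes Gbp7, Ifi47, Igtp, Parp14 and Herc6, and Socs1. Of the 14 higher in 4 of 5, Atp5k, Cox17, Ndufa3, Pet100, Rps28, Rps29 and Usmg5 encode small mitochondrial or ribosomal proteins. The 14 also hold Olfml3 and Gpr34 of the microglia panel, and Ltc4s, named above among the genes highest in KO microglia. The microglia panel summed to 128.3 CPM in WT and 277.5 CPM in KO single-panel neutrophils. In single-panel B cells it summed to 132 and 354.3 CPM. The part of microglial RNA in these counts was not tested. Transcripts under 500 bases were higher in 13.9% of 130 measured in microglia, 16.5% of 127 in T cells, 24.8% of 125 in monocytes and macrophages, 7.27% of 110 in neutrophils and 22.3% of 121 in B cells. For transcripts of 2000 to 4000 bases the shares were 10.8%, 7.03%, 8.20%, 3.10% and 24.6%. Those under 500 bases were thus more often higher in the first 4 of these classes and not in B cells. This did not extend to transcripts of 500 to 1000 bases. Their shares were 6.475%, 4.87%, 7.16%, 1.81% and 15%, each under that of 2000 to 4000 bases.

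The GTPases and Cxcl10 share elements in their promoters, shown because these genes were lower in several classes at once. Each line is a 50-base stretch (RefSeq, GRCm38.p6, strand of the gene) with the match to an interferon-stimulated response motif, GAAA, then 2 bases of any kind, then GAAA, on either strand, in capitals: Gbp2 chr3:142620584-142620633 (plus), Gbp7 chr3:142530263-142530312 (plus), Igtp chr11:58199502-58199551 (plus), Cxcl10 chr5:92349073-92349122 (minus) and Socs1 chr16:10785590-10785639 (minus).
Gbp2: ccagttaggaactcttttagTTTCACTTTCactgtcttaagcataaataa
Gbp7: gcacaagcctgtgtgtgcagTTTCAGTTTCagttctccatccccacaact
Igtp: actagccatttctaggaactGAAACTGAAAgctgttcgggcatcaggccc
Cxcl10: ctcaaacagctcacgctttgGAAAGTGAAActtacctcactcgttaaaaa
Socs1: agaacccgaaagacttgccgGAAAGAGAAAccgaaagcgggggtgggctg
The match lies 59, 53, 34, 213 and 83 bases before the start in that order. In windows from 250 bases before to 50 after the start, the motif was present in 10 of 11 GTPase genes (90.9%), 12 of 20 antiviral genes (60%), 1 of 13 chemokines (7.69%), 0 of 7 MHC class II and 0 of 21 cell cycle genes, against 1079 of 27025 genes in all (3.99%). The STAT motif TTCNNNGAA was present in 7 of 11 GTPase genes (63.6%) and 4 of 20 antiviral genes (20%), against 9.55% of all. A match is a description of the letters and not a bound site.

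**Figure D5:**
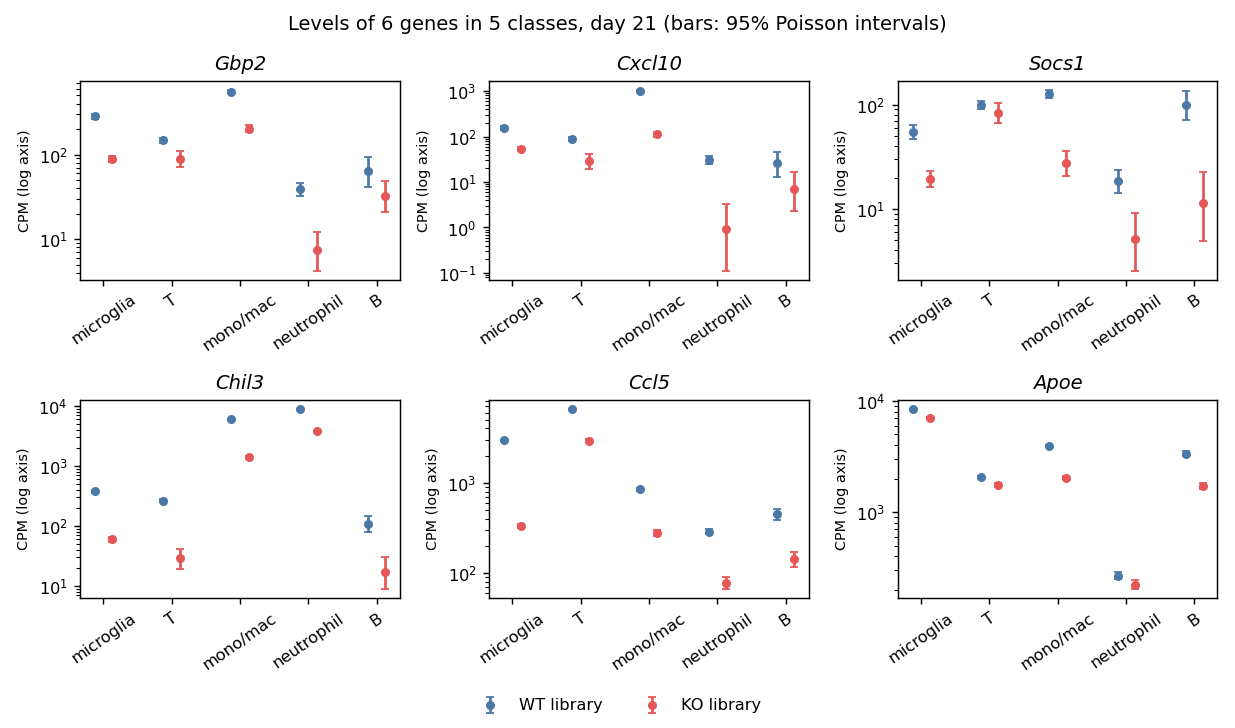
Level in CPM (log axis, y) of 6 genes in each class in WT and KO, with exact Poisson 95% intervals as bars. Gbp2 stands at 283.6 CPM in WT and 88.0 CPM in KO microglia, at 557.1 and 203.1 CPM in monocytes and macrophages, and at 148.7 and 89.1 CPM in T cells.

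The 6 targets shown at the start, a selection of those with a full match, did not move together. Socs1 was lower in KO in microglia (54.8 and 19.4 CPM), monocytes and macrophages (127.2 and 27.7 CPM), neutrophils (62 and 11 UMIs) and B cells (42 and 8 UMIs), and near equal in T cells (99.1 and 83.8 CPM, ratio 0.846, 0.660 to 1.07). Socs1 is itself induced by interferon-gamma. Inpp5d had log2 ratios of 0.23 in microglia, -0.15 in T cells, 0.29 in monocytes and macrophages, -0.03 in neutrophils and 0.03 in B cells, and Cebpb of 0.02, 0.03, 0.07, -0.06 and 0.15 in that order. Spi1, the myeloid master regulator, stayed between -0.16 and 0.22. Bach1, a repressor of heme genes, was 0.60 in microglia and -0.68 in B cells, and Jarid2, a partner of the Polycomb complex, -0.72 and 1.19. Inpp5d, Cebpb and Spi1 thus stayed inside 1.5-fold in all 5 classes. Of all published targets in the list, 6 of 30 were higher and 4 lower in microglia (median 0.11), 2 and 2 of 31 in T cells (-0.03), 1 and 5 of 28 in monocytes and macrophages (-0.11), 1 and 3 of 26 in neutrophils (-0.07), and 6 and 4 of 28 in B cells (0.12). Over all genes of these classes, in the same order, 9.14%, 6.37%, 7.63%, 3.18% and 21.0% were higher and 8.81%, 7.52%, 7.67%, 20.2% and 12.9% lower. In single-panel cells the counts were 6 and 2 of 29 in microglia (0.19), 7 and 2 of 30 in T cells (0.11), 5 and 6 of 29 in monocytes and macrophages (0.08), 2 and 4 of 26 in neutrophils (-0.05) and 7 and 2 of 26 in B cells (0.01). Csf1r, given above as a homeostatic gene, is also in this list and has 1 full 8-base match. Its log2 ratios were 0.89 in microglia, -0.60 in T cells, 0.04 in monocytes and macrophages, 0.85 in neutrophils and -0.22 in B cells. Maf, a factor of macrophages with 0 full 8-base matches, stood at 127.9 and 226.8 CPM in microglia. Ifngr1, the receptor for interferon-gamma, has 0 full 8-base matches but 1 match of 7 bases to the seed. It stood at 484 and 790.4 CPM in T cells.

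Genes with a full 8-base match to the seed in their 3′ untranslated region had medians close to those of genes with no match. In microglia the median was 0.04 for 260 genes with such a site and 0.04 for 6411 with none, in T cells 0.02 for 253 and -0.02 for 6210, and in neutrophils -0.19 and -0.21. In B cells it was 0.14 and 0.10. Among untranslated regions of 1000 to 3000 bases the microglial values were 0.02 and 0.08, and those of B cells 0.29 and 0.14. Levels of messenger RNA are blind to repression of translation.

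On the earlier days, each with its own library a side, the lists had other values. The microglial GTPase median was 0.17 on day 13 and -0.12 on day 0, against -1.32 on day 21, and that of MHC class II 0.42 and -0.07 against -0.70. In monocytes and macrophages the GTPase median was -0.06 on day 13, the chemokine median 0.22 and that of the Arg1 and Nos2 list 0.06. Cytotoxic genes of T cells stood at -0.86 on day 13, and naive genes at 0.31. The KO to WT ratio of the microglial share was 1.16 on day 0 and 0.629 (0.577 to 0.686) on day 13, against 3.31 on day 21, and that of T cells 0.866 and 0.855 against 0.245. The T cell share was below that of WT in all 3 pairs, though the day 0 interval (0.671 to 1.12) included 1. The difference between days was not tested. Homeostatic genes of microglia had -0.31 on day 13, and immediate early genes 0.55, beside 0.75 and 0.47 on day 21.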

How the data were processed

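The sources were 3′ single-cell libraries (10x), 1 per genotype and day. The deposited matrices hold UMI counts per gene (28692 genes) and barcode, made by the authors with Cell Ranger 2.0.2 against mm10, per the submitters' processing notes; how empty droplets were removed is not stated. The barcode filters were 200 detected genes as the minimum and 10% mitochondrial UMIs as the maximum. Scripts (Python 3.11.15, numpy 2.4.6, scipy 1.17.1, pandas 2.3.3, figures with matplotlib 3.10.9) gated cells with 11 marker panels, summed raw counts per class and library, and compared CPM with a pseudocount of 1. Intervals are exact Poisson for levels, conditional binomial for ratios of counts, Clopper-Pearson for shares and log-normal for ratios of shares. UMIs remove copies made by PCR; with 1 library a side no p-value was computed. No doublet caller was run: mixed barcodes were set aside and every list was recomputed without barcodes that met a second panel.

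The named genes were the 10 highest and 10 lowest in each class with 50 or more cells in both libraries, ranked by the bound of the 95% counting interval nearest to 1 among genes at 50 CPM or more and past 1.5-fold, leaving out panel, mitochondrial, ribosomal, hemoglobin and sex-linked genes, pseudogenes and predicted genes, and 2 to 6 members of each list. Members and the 46 gene lists were chosen with earlier results of these data known. The Leiden alternative used scanpy 1.11.5 and leidenalg 0.10.2 on 2000 variable genes, 30 components and 15 neighbours at resolution 1. Scripts were tested on simulated data. Seed matches were searched in GENCODE M21 untranslated regions and motifs in RefSeq promoters.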

Additional observations from a re-analysis of the deposited data

Results flagged for a closer look

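MHC class II genes of neutrophils had log2 ratios of KO to WT with a median of -0.90 on day 21 and of 0.83 on day 13, opposite directions in the pairs of the 2 days. The difference was not tested, since each day has 1 library a side. With barcodes that met a second panel left out, the day 21 median was 0.09 over 5 measured genes, and H2-Aa went from a log2 ratio of -1.34 to 0.28.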

How the results depend on the processing

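Named settings were run one at a time. The shared-barcode, mixed-barcode and single-cell settings were chosen after seeing the data, and for moved values not explained by construction the cause was not tested. Of the values recomputed, 57 of 65 class shares, 62 of 110 gene counts, 407 of 439 list medians, 330 of 500 named genes and 31 of 46 subset shares stayed within the set range, and 2 list medians and 9 gene values turned direction. The microglial share ratio was 2.85 with a lead of 1, 3.75 with 5 or more panel genes and a lead of 3, 5.06 with Leiden clusters, 3.01 over gated barcodes and 2.43 with mixed T cell and microglia barcodes counted as microglia. Counts of genes move with the minimum and the fold by construction. Without a CPM minimum, genes higher and lower in KO were 1529 and 1600 in microglia, 1742 and 2177 in T cells, 1314 and 1506 in monocytes and macrophages, 718 and 3016 in neutrophils, and 3496 and 2001 in B cells. At a 50 CPM minimum they were 272 and 235, 93 and 97, 135 and 195, 36 and 258, and 270 and 151, in that order. At 2-fold they were 127 and 329, 96 and 176, 74 and 228, 38 and 257, and 667 and 403. With a pseudocount of 5, T cells had 295 higher and 369 lower, and monocytes and macrophages 325 higher. With second-panel barcodes left out, microglia had 425 lower, T cells 1007 higher and 908 lower, monocytes and macrophages 1105 and 878, and neutrophils 249 higher. With Leiden clusters microglia had 383 lower and T cells 948 higher. Thinned to 1500 UMIs, T cells had 1127 and 973, monocytes and macrophages 1177 and 987, and neutrophils 312 higher. Centred on the median, neutrophils had 355 higher and 541 lower.

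With second-panel barcodes left out, list medians moved to -1.28 for MHC class II and -0.37 for S100 genes of microglia, 0.89, -1.27, -0.40 and -0.15 for naive, cell cycle, chemokine and GTPase genes of T cells, 1.64 for nonclassical genes of monocytes and 0.0856 for MHC class II of neutrophils, which reversed. With Leiden clusters they were -1.28 and -0.30 in microglia, 0.91 (naive), -0.41 (chemokines), -0.21 (GTPases) and -1.49 (cytotoxic) in T cells, -1.30 for NF-kB and -0.0840 for nonclassical genes of monocytes, the latter reversed, and -1.45 and -0.56 for MHC class II and cell cycle genes of neutrophils. Thinning gave -0.23 for the T cell cycle list, 1.59 for nonclassical and 0.84 for cell cycle genes of monocytes, and the strict gate -1.17 for their NF-kB list. Of single genes, Hmox1 in T cells reversed to -1.62 with second-panel barcodes left out, -0.79 with 5 or more panel genes, -1.85 with Leiden clusters, -0.10 when thinned and -0.0273 without its top cell. Cd7 in T cells reversed to -0.0248 with Leiden clusters, and Ccl17 in T cells (0.0926), H2-Aa in neutrophils (0.28) and Tgfbi in B cells (0.15) with second-panel barcodes left out. No paired analysis was possible because each group held 1 library. Depth limits B cells most: the counting interval excluded 1 for 320 of 1481 genes higher and 200 of 911 lower.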

Other observations

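The classes under 50 cells in a library were not compared gene by gene, and a few of their values are given here; the genes were chosen for their place in the results above. NK cells (51 WT and 32 KO) did not share the low granzymes of KO T cells: Gzma stood at 9131 CPM in WT and 12642.2 CPM in KO, a ratio of 1.39 (1.29 to 1.49), Gzmb at 827.4 and 906 CPM, and Ccl5 at 19143.4 and 25111.4 CPM. Ifng had 8 UMIs in WT and 2 in KO NK cells. Conventional dendritic cells (69 and 22) had Cxcl10 at 98.7 and 12.6 CPM, the direction seen in monocytes and macrophages, Ccl5 at 3137 and 1857 CPM, and Mki67 at 11 UMIs in WT and 0 in KO. In B cells, 7 of 7 measured B precursor genes were higher in KO, and 5 of 5 in single-panel cells, beside 21.0% and 24.7% of all genes. Most rest on few molecules. Cd24a, a surface protein of young B cells, stood at 367.8 and 619.2 CPM, and Sox4, a factor of early B cells, had 3 UMIs in WT and 23 in KO. Vpreb1 and Igll1, the surrogate light chain, had 13 and 10 UMIs in KO and 0 in WT. They and Sox4 reached the minimum of 10 CPM in the KO library only, which fixed their direction in advance. The counts of 7 of 7 and 5 of 5 are therefore not read as a result about the list. After thinning, 3 of 300 KO cells and 0 of 185 WT cells had a UMI of Vpreb1, Igll1, Rag1 or Dntt, which allows up to 1.97% of WT cells with such a UMI (exact binomial limit), above the KO share of 1%.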
